A study of Mus musculus with 8 samples.

Results

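The RAS family members Hras, Nras, Mras, Rras and Rras2 were followed across ERF genotype, 4-hydroxytamoxifen (OHT) and cell pool in mouse embryonic stem cells. Every probe whose RefSeq accession carries one of these 5 symbols was taken, whatever its values. That gave 10 probes of the 55681 on the array, for 5 of the 21154 genes that could be named: 3 probes each for Nras and Mras, 2 for Hras and 1 each for Rras and Rras2. Each probe was kept alone, since levels of different probes cannot be set against each other.

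RAS proteins are small GTPases of the plasma membrane that switch between an inactive GDP-bound and an active GTP-bound state. Exchange factors load them with GTP and GTPase-activating proteins (GAPs) switch them off, while a lipid anchor at the C terminus holds most of them at the membrane. HRAS and NRAS are classical members that activate the RAF, MEK and ERK kinases, a pathway that in embryonic stem cells favours the exit from self-renewal. MRAS forms a complex with SHOC2 and the protein phosphatase PP1 that removes an inhibitory phosphate from RAF, RRAS is known for its role in integrin adhesion, and RRAS2 (TC21) for signalling through PI3 kinase.

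Total RNA was hybridised to 8 Agilent 1-colour arrays in 4 groups of 2: cells labelled ERF knockout with OHT, the same without OHT, ERF wild type cells with OHT, and ERF wild type cells without OHT. In all 4 groups, per the labels, both copies of Hras and Nras were deleted and the cells carried RERTert/ert, a Cre recombinase switched on by OHT, so that OHT leaves them without the classical RAS proteins. OHT was given for at least 2 days. ERF is a repressor of the ETS family that active ERK keeps out of the nucleus. Each sample was a mix of 2 clones. Pools A2 and B2 made up the labelled knockout and pools A1 and B1 the wild type, each with 1 OHT and 1 untreated sample. The labels name the 2 pools as biological replicates, and p-values reflect the spread among them. No group received OHT while keeping RAS, so OHT itself and the loss of RAS cannot be told apart. In such bulk RNA, fewer cells of a type and less RNA per cell cannot be told apart.

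Spots well above background made up 54.0 to 63.6% of an array, with 0 saturated. Slide 2 held both arrays of pool B1 and slide 1 the other 6, so each OHT array shared a slide with the untreated array of its pool. Of the embryonic stem cell markers, 8 or 9 of 9 were well above background on every array. Their summed signal, as a multiple of the 75th percentile of the array, was 323 with OHT and 352 untreated in pool A2 and ran from 494 to 716 in the other pools. On the A2 array with OHT, Zfp42 lay in one of the dark patches (regions whose spots read low together), and so did Col1a1 and Dab2 of the other marker lists. Zfp42 had no value there, so the 323 leaves it out, whereas the 352 includes it at 5.10 on the log2 scale. The stem cell marker sums with and without OHT in pool A2 thus cover different genes and cannot be compared. All 7 fibroblast or feeder markers were well above background on all arrays. Their sums were 41.0 with OHT and 35.3 untreated in pool A2 and 22.2 to 42.9 in the other pools, higher with OHT in 4 of 4 pools. The 41.0 includes Col1a1 from the dark patch, at -2.26 on the log2 scale against 3.79 untreated. That sum thus reads low, and its place among the sums of the other pools is not known. Of the 7 trophoblast markers 6 were well above background on all arrays (not Elf5). Their sum was 18.5 with OHT and 15.1 untreated in pool A2, 14.5 and 11.6 in B2, 26.8 and 10.4 in A1, and 23.5 and 11.2 in B1, again higher with OHT in 4 of 4 pools. The 6 primitive endoderm markers summed to between 1.15 and 2.70. The part of these markers in the changes with OHT was not tested. Erf itself read 3.92 with OHT and 3.45 untreated in pool A2 on the log2 scale, against 4.93 to 5.65 in the other 3 pools. Pool B2, at 5.31 and 5.65, was thus not below the wild type although it is labelled knockout. A signal from the Erf, Hras or Nras probes does not test the labels, since the sources used here do not say whether these probes lie inside the deleted sequence.

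Levels are given on the log2 scale relative to the 75th percentile of each array. Testing required a signal well above background on both arrays of 1 or more groups, which 9 of the 10 member probes met. The exception was the second Hras probe, A_55_P1979536, which was well above background on 1 of 8 arrays (wild type pool A1 with OHT). It was not tested and gives no fold.

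ERF binds DNA at the ETS core GGAA, so the stretches ahead of the genes are shown with each GGAA, or TTCC where it lies on the other strand, in capitals. They are the 200 bases before the annotated start of the gene, 5′ to 3′ in the direction of transcription, from RefSeq on GRCm38.p6. Hras lies on the minus strand and its stretch covers chr7:141194020-141194219. Nras lies on the plus strand (chr3:103058085-103058284). Rras lies on the plus strand (chr7:45017742-45017941), at 1 of its 3 listed starts. Rras2 lies on the minus strand (chr7:114117782-114117981). The window listed for Mras lies inside the annotated gene and is not shown.
Hras: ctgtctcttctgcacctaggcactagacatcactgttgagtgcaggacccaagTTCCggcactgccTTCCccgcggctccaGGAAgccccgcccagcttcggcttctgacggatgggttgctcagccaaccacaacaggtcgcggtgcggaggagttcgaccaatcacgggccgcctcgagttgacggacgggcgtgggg
Nras: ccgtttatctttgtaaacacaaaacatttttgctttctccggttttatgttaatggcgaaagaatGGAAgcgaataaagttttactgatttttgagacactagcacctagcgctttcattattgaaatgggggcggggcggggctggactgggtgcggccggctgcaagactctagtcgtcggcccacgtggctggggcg
Rras: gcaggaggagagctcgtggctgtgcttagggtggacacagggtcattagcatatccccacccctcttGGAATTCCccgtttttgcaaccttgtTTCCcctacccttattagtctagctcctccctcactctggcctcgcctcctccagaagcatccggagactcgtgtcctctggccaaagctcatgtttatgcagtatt
Rras2: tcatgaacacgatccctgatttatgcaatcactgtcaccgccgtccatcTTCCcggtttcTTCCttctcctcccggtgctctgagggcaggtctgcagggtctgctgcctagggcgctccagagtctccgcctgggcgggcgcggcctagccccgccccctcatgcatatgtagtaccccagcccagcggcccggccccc
The core occurs 3 times in the stretch of Hras, 1 time in that of Nras, 3 times in that of Rras and 2 times in that of Rras2. It is common: 89.0% of all 32851 promoters in the table hold it within 200 bases, with a median of 2. The longer ETS form CCGGAA, which contains the core and was also read on the other strand, stands in the stretch of Hras alone among these 4, against 10.7% of all promoters. CCGGAAGT, read on both strands, occurs in none of them and in 2.68% of all promoters. These matches are descriptions of the letters and not of binding.

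Hras was the steadiest member. Its bright probe, A_51_P357664, read 2.78 and 2.97 in the labelled knockout with OHT (pools A2 and B2), 2.86 and 3.15 in the labelled knockout untreated, 2.89 and 2.86 in the wild type with OHT (pools A1 and B1), and 3.21 and 3.13 in the wild type untreated. All 8 arrays fell within 0.43 log2 units, a 1.35-fold range, and 91.0% of tested probes ranged at least as far. Both wild type pools were lower with OHT than either was untreated, whereas the labelled knockout groups overlapped. The change with OHT was -0.08 and -0.18 in pools A2 and B2 and -0.32 and -0.27 in pools A1 and B1, below 0 in 4 of 4 pools. By group mean the order was wild type untreated, labelled knockout untreated, wild type with OHT and labelled knockout with OHT, and each group overlapped the next.

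Nras was measured by 3 probes, all well above background on 8 arrays. The brightest, A_52_P566348, read 2.08 and 2.09 in the labelled knockout with OHT, 1.56 and 1.71 in the labelled knockout untreated, 0.99 and 1.87 in the wild type with OHT, and 0.87 and 1.58 in the wild type untreated. Probe A_51_P396273 read 1.12 and 1.57, 0.94 and 1.17, 0.31 and 1.41, and 0.10 and 1.21 in the same order of groups. Wild type pool A1 was the lowest of the 4 pools with both probes, with and without OHT, and the wild type groups overlapped each other with every Nras probe. The third probe, A_52_P649296, read 1.04 and 1.20, 0.70 and 0.86, 0.08 and 1.28, and -0.23 and 0.96 in that order. The 3 probes had similar profiles, with Pearson correlations of 0.93 to 0.98 and rank (Spearman) correlations of 0.83 to 0.90 over the 8 arrays. These values describe arrays that share pools. With A_52_P566348 and A_52_P649296 both labelled knockout arrays with OHT lay above both untreated ones, whereas A_51_P396273 overlapped. The change with OHT was above 0 in all 4 pools with each probe, from 0.12 to 0.52.

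Mras moved most of the members. Its bright probe, A_55_P2060303, read 1.97 and 3.80 in the labelled knockout with OHT, 0.60 and 3.31 in the labelled knockout untreated, 3.33 and 3.68 in the wild type with OHT, and 1.88 and 3.20 in the wild type untreated. That is a 9.18-fold range over the 8 arrays, reached or passed by 6.89% of tested probes. Both wild type arrays with OHT lay above both untreated ones, and the labelled knockout groups overlapped widely because pool A2 was far below pool B2. The change with OHT was 1.37 and 0.49 in pools A2 and B2, and 1.44 and 0.48 in pools A1 and B1, so that both A pools, which started lower, gained more than the B pools. The other probes were dim. A_52_P203798 was well above background on 7 arrays, all but the untreated array of A1, and in the 3 pools measured on both arrays its change was 0.43, 0.99 and 0.30 (A2, B2 and B1). A_55_P2154322 was well above background on 5 arrays and was tested only through the wild type with OHT, where it was brightest. Its change was 1.03 in B2 and 0.33 in B1, and no value is given for the other pools.

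Rras, probe A_52_P635182, read 2.31 and 1.69 in the labelled knockout with OHT, 1.51 and 1.41 in the labelled knockout untreated, 1.83 and 1.77 in the wild type with OHT, and 1.53 and 1.33 in the wild type untreated. All 4 arrays with OHT lay above all 4 untreated arrays. The change was 0.80 and 0.28 in pools A2 and B2 and 0.29 and 0.44 in pools A1 and B1. Rras2, probe A_52_P558859, read 1.99 and 1.32, 1.99 and 1.46, 1.21 and 1.15, and 1.42 and 1.503 in the same order of groups. Pool A2 was the highest pool with and without OHT. The wild type arrays with OHT lay below the untreated ones, and the changes were -0.000596 and -0.14 in pools A2 and B2 against -0.21 and -0.35 in pools A1 and B1.

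**Figure D1:**
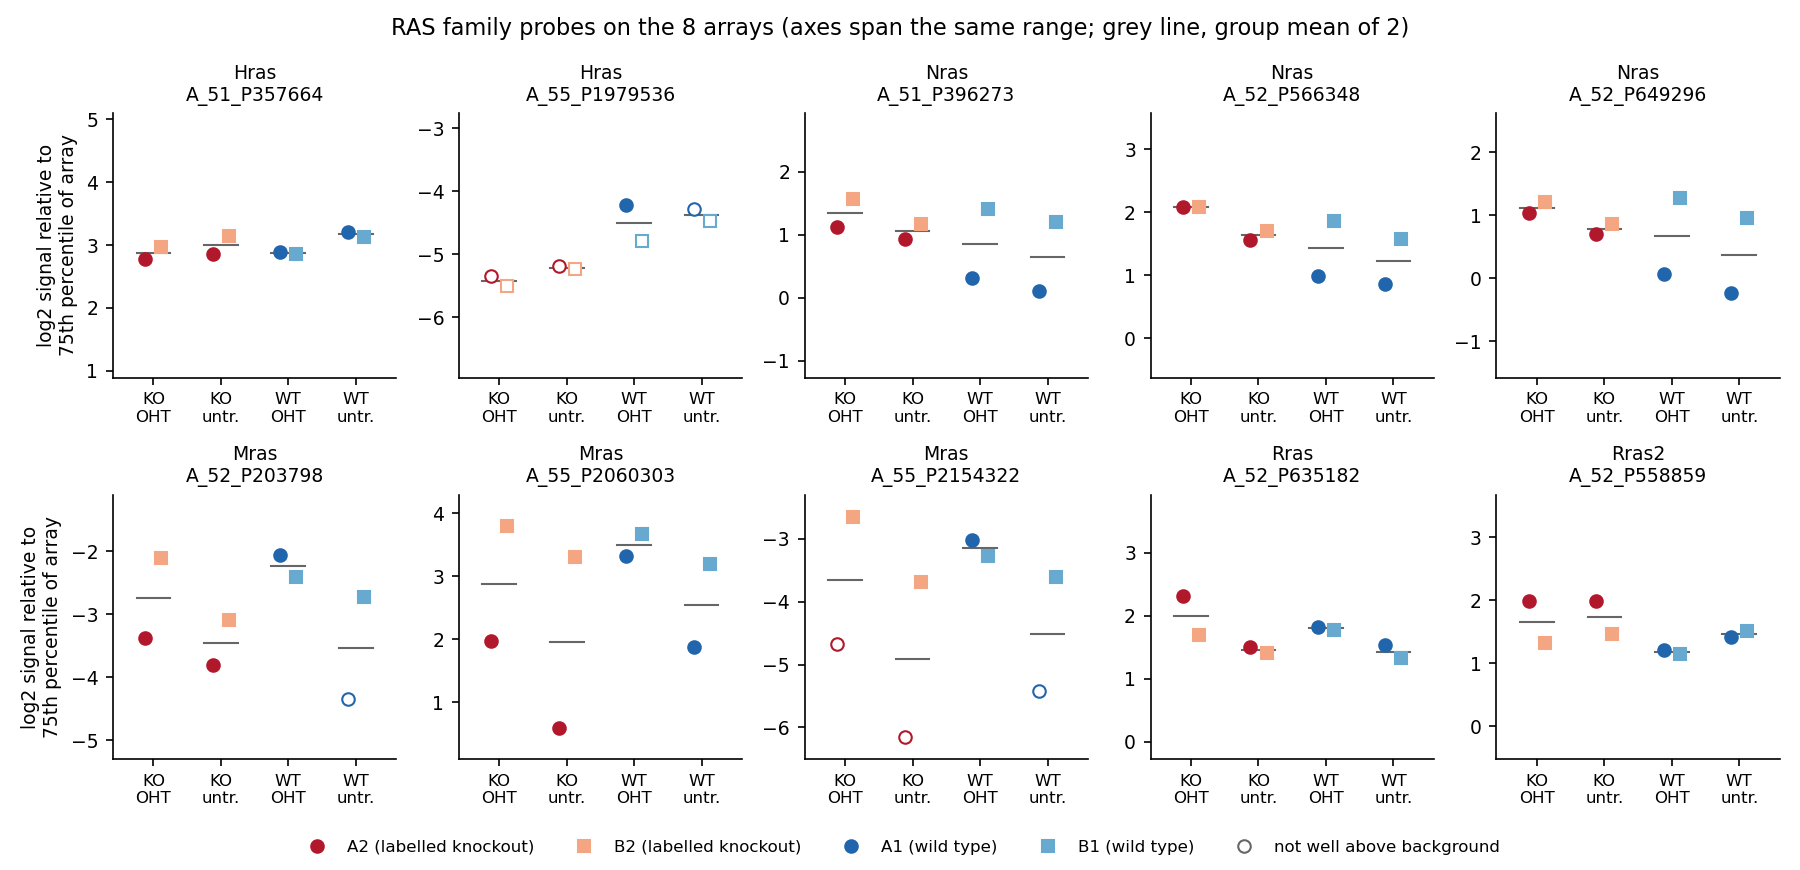
Level of each member probe on the 8 arrays (y axis, log2 signal relative to the 75th percentile of the array) by group (KO, labelled ERF knockout; WT, ERF wild type; untr., untreated); points are arrays, grey lines the mean of the 2 arrays, and all panels span the same height. Mras ranges over 3.20 log2 units with its bright probe, Hras over 0.43, and open points of the dim probes mark arrays not well above background.

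Whether OHT changed the members was tested first on the group means with limma, with adjustment over 32420 probes. Of the 9 tested member probes 0 were called in the labelled knockout and 0 in the wild type, where 0.0% of all probes were called in either comparison. No member probe had an unadjusted p under 0.05 there, against 1342 probes in the labelled knockout and 1719 in the wild type. The member nearest to the threshold was Rras in the labelled knockout (0.54 ± 0.26 SE, adjusted p = 1.00 by limma). With the pools as blocks, dark patches of the arrays left out and a trended variance (the paired fit), still 0 of 9 were called in either genotype, where 6.3% of all probes were called in the labelled knockout and 9.68% in the wild type. In that fit 4 member probes had an unadjusted p under 0.05 in the labelled knockout, as did 7791 of 32419 probes, and 6 in the wild type, as did 8106 of 32420. The smallest adjusted p-values by limma were 0.055 for Nras A_52_P566348 and 0.064 for Rras in the labelled knockout (changes of 0.39 and 0.48), and 0.0617 for Hras in the wild type (change of -0.29). With 1 probe per gene, which lowers the number of tests, Nras (adjusted p = 0.0396 by limma) and Rras (0.0491) were called in the labelled knockout, where 12.3% of genes were called. Under that setting Hras (0.0397) was called in the wild type, where 16.5% of genes were called.

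The changes had the same sign in both genotypes, so 1 common OHT effect over the 4 pools was also fitted, a choice made after seeing the data. With pools as blocks alone, 0 of 9 member probes were called by limma and 0.0% of all probes, with 7 of 9 member probes and 8029 of 32420 probes at an unadjusted p under 0.05. With dark patches left out and the trended variance 5 of 9 were called, where 17.4% of all probes were: 6.27% higher and 11.1% lower. Rras rose by 0.43 ± 0.0881 (SE, adjusted p = 0.0131 by limma). Nras rose by 0.30 ± 0.0735 with A_52_P566348 (adjusted p = 0.0261) and by 0.30 ± 0.0708 with A_52_P649296 (0.0226), while A_51_P396273 missed at 0.22 (0.0836). Mras rose by 0.92 ± 0.208 with its bright probe (0.0422). Its dim probes were not called, and their fitted values are not given because they include untreated arrays not well above background. Hras fell by 0.24 ± 0.0594 on the log2 scale (0.0262), and Rras2 stood at -0.20 ± 0.072 (0.0906). With 1 probe per gene 4 of the 5 genes were called, where 26.9% of genes were.

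These calls are narrow. Without pool B1, the pool on slide 2, 0 of 9 probes were called, and 2, 3 and 2 were called without A1, A2 and B2, where 6.87, 12.2, 13.7 and 12.4% of all probes were called. Rras was among them without A1, A2 or B2 (adjusted p = 0.025, 0.0302 and 0.0222 by limma) and stood at 0.42 without B1 (0.0646). Hras lost its call under normexp (-0.19, 0.146), quantile normalisation (-0.17, 0.122) and median scaling (-0.24, 0.834), and under median scaling Rras (0.43, 0.46) and both Nras probes (0.30 each, 0.728 and 0.722) lost theirs. No member changed sign in these settings. By sign alone, of the 7 member probes well above background on all 8 arrays, 5 were higher with OHT in all 4 pools, among them the 3 Nras probes. Of the 32241 tested probes with a value on all arrays, 17.3% were. The other 2 member probes were lower in all 4 pools, as were 20.1% of the tested probes. The tested probes needed to be well above background on both arrays of only 1 group, so the sets are not alike. None of the 7 had 1 sign in both labelled knockout pools and the other in both wild type pools, as 9.6% of the tested probes had.

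**Figure D2:**
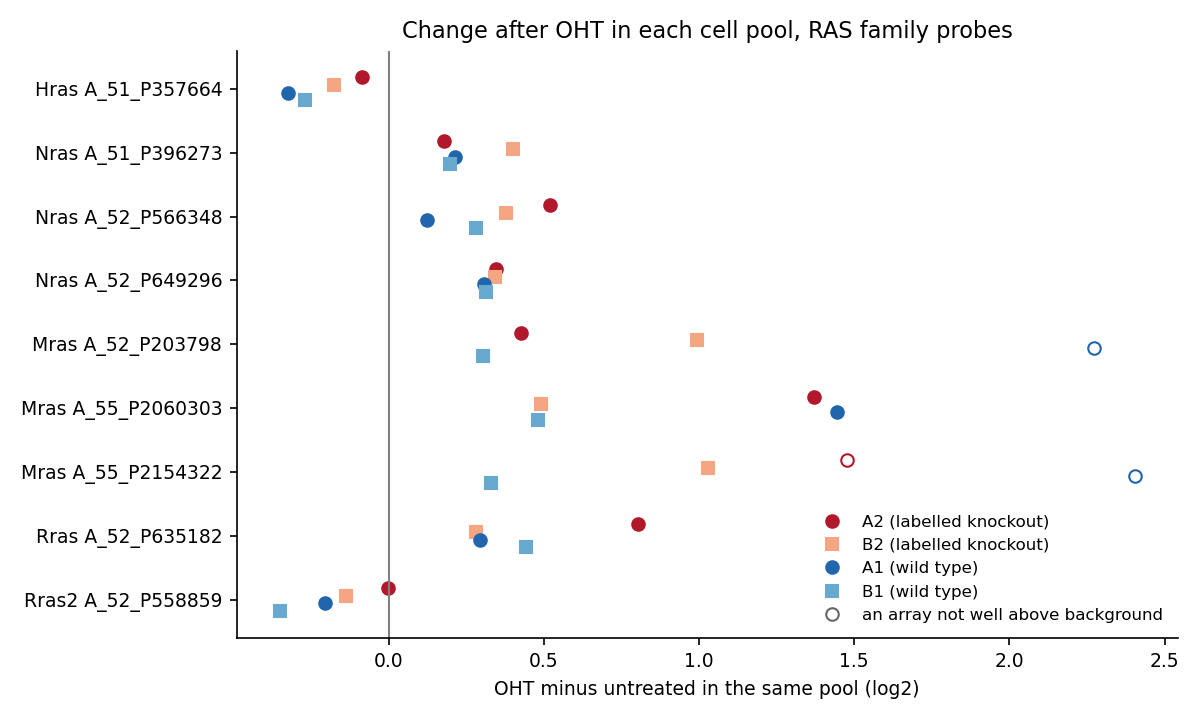
Change with OHT (x axis, log2, OHT minus untreated in the same pool) for each tested member probe and pool; open points rest on at least 1 array not well above background and are no exact changes. The Nras and Rras probes and the bright Mras probe lie to the right of 0 in all 4 pools and Hras to the left, and the bright Mras probe runs from 0.48 to 1.44.

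Whether the OHT response depended on ERF was asked by the difference of the effects, labelled knockout minus wild type. On the group means 0 of 9 member probes were called by limma, where 0.0% of all probes were called, and 0 of 9 had an unadjusted p under 0.05. The differences were 0.17 ± 0.28 for Hras, 0.03 to 0.25 for the Nras probes, -0.03 ± 1.48 for the bright Mras probe, 0.17 ± 0.36 for Rras and 0.21 ± 0.43 for Rras2 (SE). In the paired fit, which compares the arrays of a pool, the difference was -0.10 ± 0.517 for the bright Mras probe, 0.105 ± 0.177 for Rras and 0.18 ± 0.13 for Nras A_52_P566348, and again 0 of 9 were called and 0.0% of all probes.

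On the group means, the labelled knockout against the wild type gave 0 of 9 member probes called by limma with OHT and 0 of 9 without OHT, where 0.0% of all probes were called in either comparison and no member had an unadjusted p under 0.05. All 3 Nras probes stood higher in the labelled knockout, by 0.45 to 0.66 with OHT and by 0.40 to 0.41 untreated. Within slide 1, which leaves out pool B1, these differences were 1.03 to 1.09 with OHT and 0.77 to 1.01 untreated, with no test because the wild type then has 1 array. With the slide as a block the Nras differences were 1.033 to 1.055 with OHT and 0.81 to 1.01 untreated (SE 0.19 to 0.25). Slide 2 held pool B1 alone, so the slide term takes up the gap between the wild type pools. That gap was 0.72 to 1.20 log2 units with the Nras probes, and the SE and p-values of this fit leave it out. All 3 Nras probes then had an unadjusted p under 0.05 in both comparisons, as did 1068 probes with OHT and 1265 untreated, and 0 of 9 were called by limma (adjusted p = 1.00 each). The genotypes share no pool, so no pairing by pool is possible here. The replicate number served as the block instead, which sets A2 beside A1 and B2 beside B1. With that block, dark patches left out and the trended variance, 0 of 9 were called too. Only Nras A_52_P566348 with OHT had an unadjusted p under 0.05 (0.59 ± 0.23 SE, adjusted p = 0.678 by limma), as did 2367 probes. Without pool B2, whose Erf level was not below the wild type, the Nras differences on the group means were 0.26 to 0.65 with OHT and 0.29 to 0.33 untreated. Rras2 stood 0.48 higher with OHT and 0.27 higher untreated, or 0.45 and 0.31 within slide 1. Without pool B2 Rras2 differed by 0.81 with OHT and 0.53 untreated, and the bright Mras probe by -1.53 with OHT and -1.94 untreated. The labelled knockout is then pool A2 alone, with 1 array per treatment, so no test is given for the values without B2. Within slide 1 the bright Mras probe differed by -0.45 with OHT and 0.0694 untreated. Without OHT the bright Mras probe averaged 1.95 in the labelled knockout, between the 1.88 of pool A1 and the 3.20 of pool B1 in the wild type.

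The pools of a genotype lay far apart for Mras and, in the wild type, for Nras. With the bright Mras probe pool B2 exceeded pool A2 by 1.83 log2 units with OHT, a gap that 9.24% of tested probes reached, and by 2.71 untreated, a 6.54-fold gap that 1.21% reached. Between the wild type pools the gap was 0.35 with OHT and 1.31 untreated. Nras A_52_P649296 differed by 1.20 between the wild type pools with OHT, a gap that 5.95% of tested probes reached, but by 0.16 between the labelled knockout pools with and without OHT. Rras2 was lower in B2 than in A2, by 0.67 with OHT and by 0.53 untreated, gaps that 34.9 and 35.4% of tested probes reached. The gap between the wild type pools lies across the slides, so pool and slide cannot be told apart there. Spots of probes printed 5 or more times on an array had a median SD of 0.041 to 0.0549 log2 units.

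**Figure D3:**
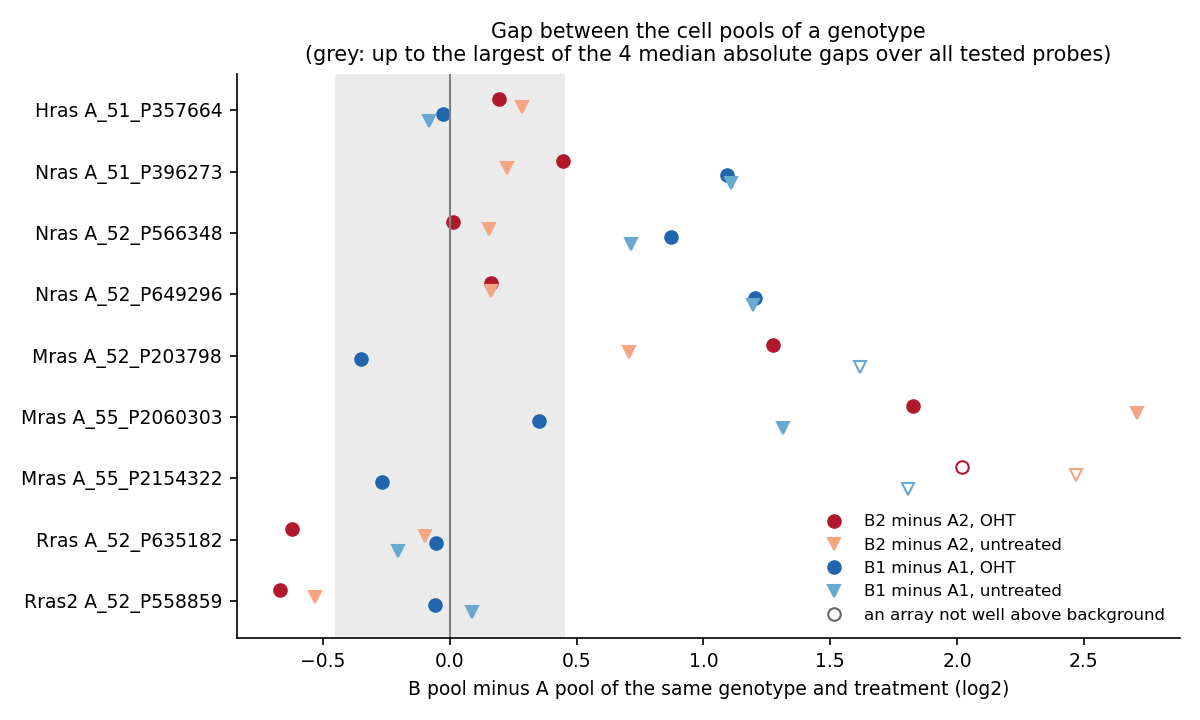
Gap between the pools of a genotype (x axis, log2, B pool minus A pool) for each tested member probe, in each group; open points rest on at least 1 array not well above background, and the grey band reaches to 0.45, the largest of the 4 median absolute gaps over all tested probes. Mras reaches 2.71 in the untreated labelled knockout, and Nras gaps exceed the band in the wild type and not in the labelled knockout.

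Over the 8 arrays, the profile most like that of the bright Mras probe was Esrrb, a transcription factor of the naive embryonic stem cell state (Pearson r = 0.99 among 2171 genes that varied enough to compare). Esrrb read 5.36 and 7.07 in the labelled knockout with OHT, 4.44 and 6.68 in the labelled knockout untreated, 6.48 and 7.002 in the wild type with OHT, and 5.31 and 6.58 in the wild type untreated. Both genes were lowest in pool A2 untreated and both gained more in the A pools than in the B pools. Esrrb is also among the embryonic stem cell markers whose summed signal was lowest in pool A2, and the part of that marker level in the Mras values was not tested. Gabbr1, a GABA receptor subunit, and Rnf157, a ubiquitin ligase, followed at 0.98 each. The profile of Rras was closest to Arhgef25 (0.99), Lrp1, an endocytic receptor (0.98), and Spata1 (0.97), among 11266 genes. Rras2 was closest to Gcnt1, a glycosyltransferase (0.99), Plaur, the urokinase receptor (0.99), and Wipf3 (0.99), which like Rras2 were highest in pool A2. Nras was closest to Heatr5b, Elmo3 and Cyba, a subunit of the NADPH oxidase (0.98 each), and Hras to Ppp2r3c, the nucleoporin Nup85 (0.98 each) and the fucosyltransferase Fut1 (0.97). Other genes reached a looser level of 0.9. They numbered 51 of 8473 for Nras, 94 of 2171 for Mras, 102 of 11266 for Rras, 141 of 12969 for Hras and 233 of 11044 for Rras2. With 8 arrays, such correlations describe these arrays and carry no test.

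Of 28 other GTPases of the RAS subfamily, 24 were measured. On the group means 0 were called by limma in either genotype (2 in the labelled knockout and 5 in the wild type had an unadjusted p under 0.05), and in the 4-pool paired fit 2 rose and 5 fell, where 23.4% of 15182 genes were called. Their median change was 0.05, beside -0.04 over all genes. Ralb, a RAL protein that acts downstream of RAS, rose by 0.82 ± 0.0771 (SE, adjusted p = 0.000674 by limma), from 0.59 to 0.98 in the 4 pools. Gem, which regulates calcium channels, rose by 0.50 (0.0478). Rasd2 fell by 1.13 (0.000449). Rhebl1, a relative of the mTOR activator Rheb, changed by -0.63, Diras1 by -0.60 and Rasl11a by -0.58. Eras, a RAS-like GTPase of mouse embryonic stem cells that is active without exchange factors, fell by 0.57 ± 0.0876 (adjusted p = 0.00417 by limma). Its change was -0.41 and -0.34 in pools A2 and B2 and -0.60 and -0.82 in pools A1 and B1. Rap2a and Rap1b had the most extreme values on the group means, and their spots on the A2 array with OHT lay in a dark patch. With the patches left out they stood at 0.20 and -0.05.

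**Figure D4:**
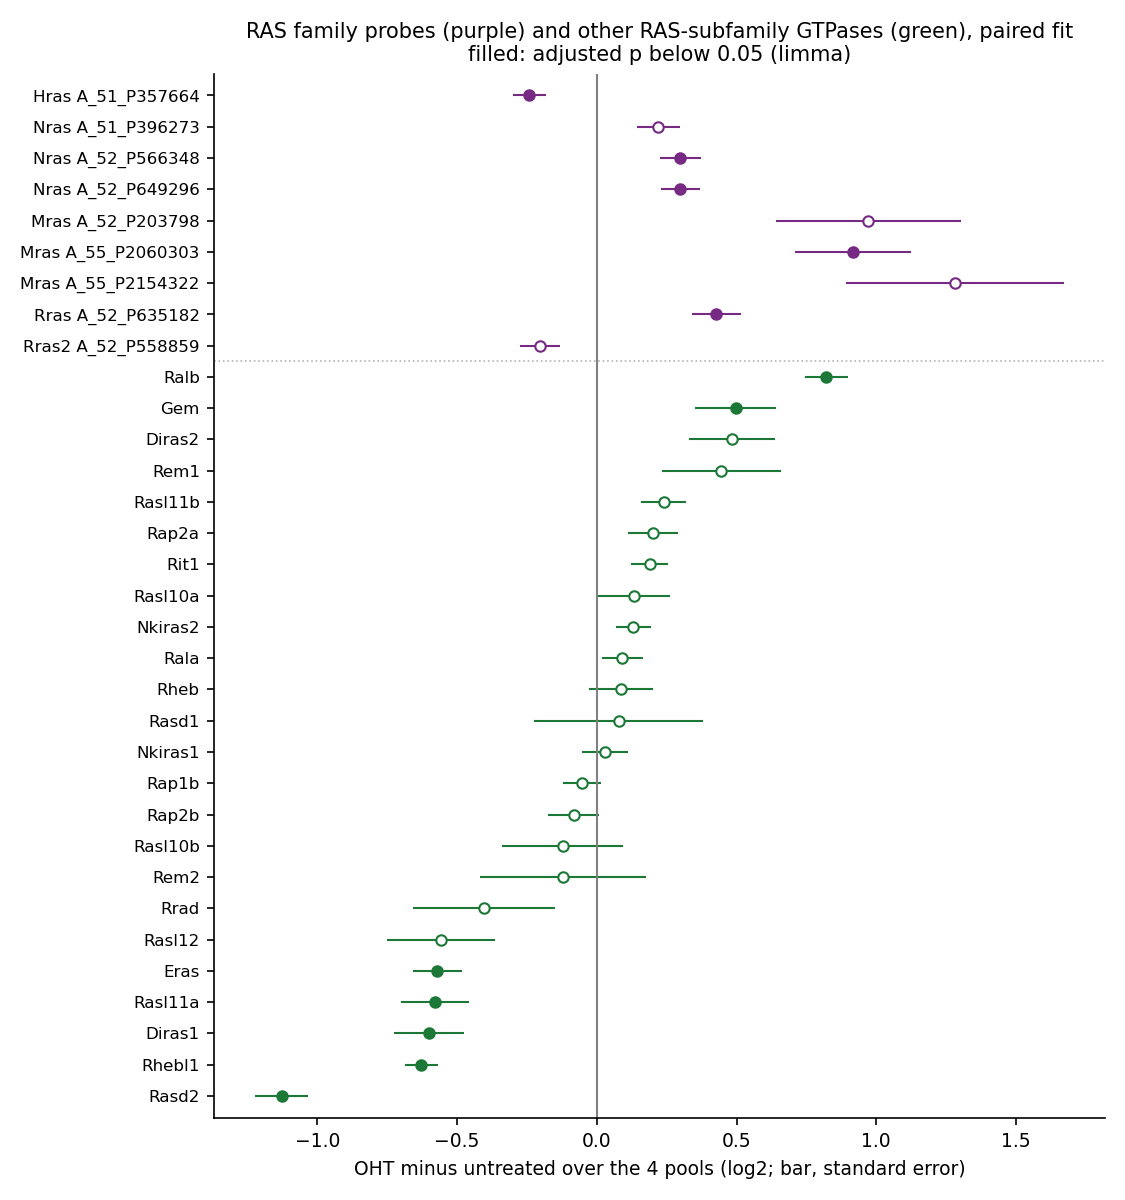
Change with OHT in the 4-pool paired fit (x axis, log2, OHT minus untreated; bars, standard error) for the member probes (purple; both dim Mras probes include arrays not well above background) and the other measured RAS-subfamily GTPases (green); filled points have an adjusted p below 0.05. Filled points number 5 of 9 among the member probes, and among the others Ralb and Gem lie above 0 and Rasd2, Rhebl1, Diras1, Rasl11a and Eras below.

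Of the 13 measured genes that attach, trim or deliver the lipid anchor of RAS, 0 were called on the group means or in the 4-pool paired fit by limma (median change -0.02), and 0 had an unadjusted p under 0.05 on the group means in either genotype. Fntb, the beta subunit of farnesyltransferase, stood at -0.37 (adjusted p = 0.37 by limma). Its change was -0.11 and -0.32 in pools A2 and B2 and 0.27 and -1.21 in pools A1 and B1. Pggt1b stood at 0.28, Pde6d, which carries prenylated proteins, at 0.18, and Icmt, which methylates the C terminus, at 0.14. Of the SHOC2 complex, through which MRAS acts, all 4 genes were measured and 0 were called by limma in either fit, with 0 at an unadjusted p under 0.05 on the group means. Shoc2 stood at 0.12 ± 0.0867 (0.412), Ppp1cc at -0.09, Ppp1ca at -0.06 and Ppp1cb at 0.00. Of 16 measured exchange factors and GAPs only Rasgrp2, at -0.27, was called in the 4-pool paired fit, where 23.4% of genes were, and the median change was 0.17, beside -0.04 over all genes. Sos1, an exchange factor, was not well above background on the untreated arrays of B2 and B1 and stood 0.43 and 0.78 higher with OHT in pools A2 and A1. Rasgrp1 was not well above background on the untreated array of B1 and stood 0.55 to 0.89 higher with OHT in the other pools. Rasa3 and Rasal1, both GAPs, were not well above background on the untreated array of A1 and differed by -0.23 to 0.31 in the other pools. The median of 0.17 includes fitted values that rest on such arrays, among them 2.15 for Rasa3 and 1.53 for Rasal1. It is therefore not read as a shift of these exchange factors and GAPs.

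ERK output genes, which report the activity of the pathway, all fell: 8 of 8 were called in the 4-pool paired fit, where 23.4% of genes were, with a median of -2.09 beside -0.04 over all genes. On the group means 0 were called by limma, with 5 in the labelled knockout and 6 in the wild type at an unadjusted p under 0.05. Dusp6 fell by 2.20 ± 0.0681 (adjusted p = 5.05e-06 by limma). Dusp4 changed by -2.24, Spry4 by -2.26 and Egr1 by -2.18. The changes of the member probes well above background on all 8 arrays ran from 0.20 to 0.92 in size in that fit.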

How the data were processed

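The authors' deposited files give 1 processed intensity per spot. Per the file headers it came from Agilent Feature Extraction 11.5.1.1 and is background-subtracted and not scaled between arrays, besides 0 or 1 flags. The authors' own normalisation and tests are not given in the sources used here. The deposited value table of the series was not used here. Groups, pools and replicate numbers came from titles and source names.

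After removal of control spots and flagged outliers, log2 values of the spots of each probe were averaged and the 75th percentile of the array was subtracted. No spot of a member was flagged or lay in a dark patch. For the patches, each spot was set against the median of its probe over the arrays. A patch is an area where the local median of the brighter probes (window of 15 by 15 spots) fell more than 0.5 log2 units below. Accessions were named through RefSeq (28026 of 55681 probes). Tests were two-sided and run with limma 3.58.1 (R 4.3.3), with Benjamini-Hochberg adjustment across every tested probe and a threshold of 0.05. The fit on 4 group means has 4 residual degrees of freedom, the paired fit 2 for OHT within a genotype and 3 for the common OHT effect. The genotype comparisons with the replicate number as block have 3. Values of the paired fit differ slightly from the plain differences because the 75th percentile is taken again without the patches. Normexp used the deposited median intensity of each spot and its local background with an offset of 50. The fit on the group means was tested on simulated arrays with independent noise, and the paired fits were not. The arrays' number sets the precision: 2 per group, with 54.0 to 63.6% of spots well above background.

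The pairing follows from the source names, since 1 pool was sampled with and without OHT. Across probes, deviations from the group mean had a correlation of 0.37 for the labelled knockout pair of groups and 0.63 for the wild type pair, and of 0.19 to 0.44 across genotypes.

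The members, gene lists and tests were chosen with earlier results of these data known. All member probes are named. From each other list the 4 genes with the largest difference in either OHT comparison on the group means are named, besides Eras. Gem, Rhebl1, Diras1, Rasl11a and Rasgrp2 were named after their values were seen. For likeness, the 3 genes with the highest Pearson correlation with the brightest probe of a member are named, among genes well above background on 8 arrays with an SD at least 0.5 times that of the member. For a gene with several probes, lists used the one with the highest mean. Some genes are not reported here. Alternatives were other backgrounds, scalings, filters, variance models, slide and pool blocks, and leaving out each array or pool. Figures used matplotlib 3.10.9 and tables pandas 2.3.3 and numpy 2.4.6, under Python 3.11.15.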

Additional observations from a re-analysis of the deposited data

How the results depend on the processing

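No planned setting moved the number of member probes called from 0 in any of the 5 comparisons by limma, and the replicate block of the 4 pools alone changed no call. Chosen after seeing the data, the replicate block with 1 probe per gene called 2 in the labelled knockout and 1 in the wild type. For OHT over the 4 pools, where pools as blocks alone called 0, the paired fit called 5, and with 1 probe per gene 4. It called 4 with normexp (16.1% of all probes), 4 with quantile normalisation (14.2%) and 3 with median scaling (3.98%). The 3 under median scaling are the Mras probes, 2 of them dim. Both dim probes include untreated arrays not well above background, and A_55_P2154322 was tested only through the wild type with OHT. Only the call of the bright Mras probe thus rests on measured values throughout. The paired fit called 2 without pool A1, 3 without A2, 0 without B1 and 2 without B2. Over all probes the calls by limma were 0 on the group means, and 2042 in the labelled knockout and 3137 in the wild type in the paired fit. Median scaling moved the median change of all tested probes from 0.10 to -0.30 for the difference of the OHT effects and from -0.04 to 0.23 for the untreated genotypes, and normexp moved the wild type OHT median from -0.08 to -0.16. With median scaling the sign turned for Hras A_51_P357664 at -0.24, Nras A_51_P396273 at -0.32, Nras A_52_P566348 at -0.16, Nras A_52_P649296 at -0.37, Rras A_52_P635182 at -0.23 and Rras2 A_52_P558859 at -0.19 for the difference of the OHT effects and Hras A_51_P357664 at 0.10 for labelled knockout against wild type without OHT. Without pool B2 the sign turned for Nras A_51_P396273 at -0.0273, Mras A_55_P2060303 at 0.41 and Mras A_55_P2154322 at 0.11 for the difference of the OHT effects and Mras A_52_P203798 at -0.28 for labelled knockout against wild type without OHT. With normexp the sign turned for Nras A_52_P649296 at -0.0589 and Mras A_55_P2154322 at 0.20 for the difference of the OHT effects and Mras A_52_P203798 at -0.18 for labelled knockout against wild type without OHT and Hras A_51_P357664 at 0.0453 for labelled knockout against wild type with OHT. With quantile normalisation the sign turned for Mras A_55_P2154322 at 0.0278 for labelled knockout against wild type without OHT and Hras A_51_P357664 at 0.00632 for labelled knockout against wild type with OHT. With dark patches left out the sign turned for Nras A_52_P649296 at -0.0352 for the difference of the OHT effects. In the paired fit the sign turned for Nras A_52_P649296 at -0.0352 for the difference of the OHT effects. With the slide as a block the sign turned for Rras A_52_P635182 at -0.0356 for labelled knockout against wild type without OHT. The causes were not tested. Leaving out 1 array at a time called 0 of the member probes and turned the sign of others. Over these settings, for OHT in the labelled knockout, Hras A_51_P357664 ran from -0.27 to 0.0116, Mras A_55_P2060303 ran from -0.42 to 2.28, Rras2 A_52_P558859 ran from -0.41 to 0.27. For OHT in the wild type, Nras A_51_P396273 ran from -0.35 to 0.76, Nras A_52_P566348 ran from -0.23 to 0.64, Nras A_52_P649296 ran from -0.29 to 0.91. For the difference of the OHT effects, Mras A_52_P203798 ran from -1.39 to 0.23, Mras A_55_P2060303 ran from -1.39 to 1.32, Mras A_55_P2154322 ran from -1.35 to 1.12, Nras A_51_P396273 ran from -0.47 to 0.64, Nras A_52_P566348 ran from -0.19 to 0.68, Nras A_52_P649296 ran from -0.57 to 0.64, Rras A_52_P635182 ran from -0.14 to 0.48, Rras2 A_52_P558859 ran from -0.13 to 0.54. For labelled knockout against wild type without OHT, Mras A_52_P203798 ran from -0.73 to 0.89, Mras A_55_P2060303 ran from -1.94 to 0.77, Mras A_55_P2154322 ran from -1.64 to 0.83, Nras A_51_P396273 ran from -0.15 to 0.95, Nras A_52_P649296 ran from -0.19 to 1.01, Rras A_52_P635182 ran from -0.073 to 0.13. For labelled knockout against wild type with OHT, Hras A_51_P357664 ran from -0.097 to 0.096, Mras A_52_P203798 ran from -1.14 to 0.13, Mras A_55_P2060303 ran from -1.53 to 0.29, Mras A_55_P2154322 ran from -1.52 to 0.49, Nras A_51_P396273 ran from -0.063 to 1.03, Nras A_52_P649296 ran from -0.16 to 1.05, Rras A_52_P635182 ran from -0.11 to 0.51. With 2 pools a group the number of arrays limits every value, and the dim probes of Mras and Hras lie near background.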
